A study of Mus musculus with 10 samples.

Results

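The 9 miRNAs described here carry the seeds of the miR-17, miR-18 and miR-19 families. They were chosen by name from the 1061 mature miRNAs of a retinal small RNA table, and all 9 were listed. The seed is the stretch from base 2 to base 8 of a mature miRNA that pairs with target messages. The miR-17 family comprised mmu-miR-17-5p, mmu-miR-20a-5p, mmu-miR-20b-5p, mmu-miR-93-5p, mmu-miR-106a-5p and mmu-miR-106b-5p, the miR-18 family was represented by mmu-miR-18a-5p, and the miR-19 family by mmu-miR-19a-3p and mmu-miR-19b-3p. The mouse prefix mmu is left out hereafter. Libraries came from the left and the right retina of 5 wild-type C57BL/6J mice, an inbred laboratory strain, numbered 61, 64, 65, 66 and 68. In each mouse myopia was induced in a single eye by a goggle with a -20 D lens, worn for 10 days starting at postnatal day 24, and the fellow eye stayed without a lens. Retinas were from postnatal day 34. Which eye carried the lens is not in the labels, so right retinas were set against left retinas of the same mouse, with 5 libraries on each side, and neither side is called treated.

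These miRNAs derive from 3 related polycistrons, transcripts that each hold several miRNA hairpins. The miR-17-92 transcript is driven by Myc and E2F factors and is known for promoting proliferation and its miR-17-seed members repress inhibitors of the cell cycle such as Cdkn1a. In the eye the clusters are best known from dividing retinal progenitors, and in zebrafish miR-18a has been linked to the timing of photoreceptor differentiation through NeuroD1. The retina is a mixture of cell types, so in these bulk samples fewer cells of a type and less RNA per cell cannot be told apart.

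The mature sequences, from RefSeq on GRCm38.p6 and matched by name for all 9 members, are shown because the seed defines the families and the remaining letters set how well the members can be told apart by sequencing. Capitals mark the seed.
miR-17-5p: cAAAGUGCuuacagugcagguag
miR-106a-5p: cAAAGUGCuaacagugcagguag
miR-20b-5p: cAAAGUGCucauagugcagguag
miR-20a-5p: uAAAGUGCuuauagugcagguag
miR-93-5p: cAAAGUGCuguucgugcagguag
miR-106b-5p: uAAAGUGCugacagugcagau
miR-18a-5p: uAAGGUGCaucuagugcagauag
miR-19a-3p: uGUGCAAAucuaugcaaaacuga
miR-19b-3p: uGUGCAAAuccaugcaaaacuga
The 6 miR-17 family members share the seed AAAGUGC, miR-18a-5p has AAGGUGC, and both miR-19 members have GUGCAAA. No other miRNA in the table with a RefSeq sequence (909 of 1061) had any of these seeds. Counting from base 1 at the 5′ end, miR-106a-5p differs from miR-17-5p by the single substitution U10A, miR-20a-5p by C1U and C12U, and miR-20b-5p by U10C and C12U. None of these lies in the seed. miR-18a-5p differs from miR-20a-5p by 4 substitutions, of which A4G is in the seed, and miR-19a-3p and miR-19b-3p are separated by U11C alone. How the authors assigned reads that fit more than 1 of these sequences is not given in the sources used here, so the values of miR-17-5p, miR-20a-5p, miR-20b-5p and miR-106a-5p, and those of the 2 miR-19 miRNAs, are uncertain relative to each other.

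The members lay at 3 loci in GRCm38. The miR-17-92 cluster occupied chromosome 14 from 115043671 to 115044506 on the plus strand, in an exon of the lincRNA Mir17hg, and held miR-17 (mature 5p arm 115043684 to 115043706), miR-18a (115043867 to 115043889), miR-19a (115044048 to 115044070), miR-20a (115044183 to 115044205) and 1 copy of miR-19b (115044358 to 115044380). The miR-106b-25 cluster lay within Mcm7, which encodes a subunit of the replicative helicase, on the minus strand of chromosome 5 from 138165321 to 138165818. There the opposite arm miR-106b-3p (138165746 to 138165767) was intronic, and miR-93-3p (138165536 to 138165557) overlapped an exon of at least 1 annotated transcript. The members miR-106b-5p (138165787 to 138165807) and miR-93-5p (138165574 to 138165596) lie on the same hairpins. Whether these 5p arms fall in an exon or an intron was not looked up. The miR-106a-363 cluster, on the minus strand of chromosome X from 52741693 to 52742567, held miR-106a-5p (52742541 to 52742563), miR-20b-5p (52742159 to 52742181) and the other copy of miR-19b (52741991 to 52742013), outside other annotated genes. The 2 copies of miR-19b-3p have 1 mature sequence, so its reads belong to either chromosome.

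The depth of the libraries is unknown, because the deposited values had been normalised to nearly equal totals, from 17312269 to 17312436. Values are in normalised reads and stand for where a miRNA ranks within its library. Retinal identity was checked on marker miRNAs: the photoreceptor miRNAs miR-182-5p, miR-183-5p and miR-96-5p made up 60.9% to 61.1% of a library, and miR-181a-5p, miR-124-3p and miR-9-5p of the inner retina and neurons 22.0% to 22.2%. Because values stand for ranks, these shares show that the markers ranked high. Their narrow ranges do not show that the libraries had equal composition. Erythrocyte markers summed to at most 0.0255% and leukocyte markers to at most 0.0135%. In normalised reads these sums were 2555 to 4420 and 1578 to 2336, and the 2 endothelial markers summed to 7427 to 9110. The 9 members together had 1675 to 2126, so these markers were not low beside them. How much of the members came from blood or vessel cells was not tested. Of the 24 markers, 3 were at 0 in at least 1 library, the muscle miRNAs miR-1a-3p and miR-206-3p and the leukocyte miRNA miR-223-3p. Separate libraries stood apart for markers of other tissues: the 2 lens and cornea miRNAs summed to 22409 in the right retina of mouse 65 and to between 999 and 2138 in the other 9 libraries, and the 3 skeletal muscle miRNAs to 1629 in the left retina of mouse 68 and to between 248 and 369 elsewhere.

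The retina contained all 3 families at a modest level, and the miR-106b-25 cluster supplied most of the miR-17 seed. The 9 members together had 1873 ± 139 normalised reads (SD over 10 libraries from 5 mice), or 0.0108% of the normalised total. The miR-17 family accounted for 1046 ± 88.5, the miR-19 family for 811 ± 86.4 and miR-18a-5p for 15.4 ± 5.47 normalised reads. Within the miR-17 family, miR-93-5p and miR-106b-5p from Mcm7 took 86.4% ± 1.34 (SD over 10 libraries), against 8.44% ± 1.41 for miR-17-5p and 4.40% ± 0.967 for miR-20a-5p. Adapter ligation favours some sequences, and mature miRNAs are counted whole with no scaling by length, so these shares do not describe molar amounts. They are shares of normalised values, which stand for ranks, and not of sequenced reads.

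miR-93-5p, a miR-17-seed miRNA of the Mcm7 locus, was the most abundant member. In mice 61, 64, 65, 66 and 68 in that order, its left retinas had 678, 736, 707, 736 and 691 normalised reads and its right retinas 678, 637, 821, 748 and 719. All libraries lay within 1.29-fold of each other, and its rank varied only from 122 to 136 of 1061. The left values all lay within the range of the right ones, and the mean over 10 libraries was 715 ± 50.2 (SD).

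miR-19a-3p and miR-19b-3p, the miR-19-seed members of the miR-17-92 cluster, followed at nearly the same level. miR-19a-3p had 448, 417, 336, 417 and 366 normalised reads in the left retinas, in the same order of mice, and 336, 382, 552, 401 and 448 in the right. miR-19b-3p had 515, 498, 336, 373 and 428 on the left and 417, 382, 336, 401 and 326 on the right. The means over 10 libraries, 410 ± 64.1 and 401 ± 65.6 (SD), did not separate the 2 miRNAs: miR-19a-3p was higher in 3 libraries, lower in 4 and equal in 3. The right retina of mouse 65 had the highest miR-19a-3p and among the lowest miR-19b-3p values.

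miR-106b-5p, the first miRNA of the Mcm7 cluster, was below the miR-19 pair in all 10 libraries. It had 169, 181, 178, 221 and 196 normalised reads in the left retinas and 159, 147, 250, 228 and 160 in the right, again in the order of mice 61 to 68. Its highest value was in the right retina of mouse 65 and its lowest in the right retina of mouse 64, the same 2 libraries that held the extremes of miR-93-5p.

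miR-17-5p, the founder of the family, stood at 94.9, 94.9, 102, 78.2 and 111 normalised reads on the left and 56.6, 74.7, 89.8, 96.2 and 83.7 on the right. Its lowest value was that of the right retina of mouse 61. miR-20a-5p, from the same transcript, had 55.0, 39.5, 44.9, 51.9 and 38.1 on the left and 58.9, 29.1, 64.2, 36.3 and 43.5 on the right. The ranges of the 2 miRNAs overlapped only through mouse 61, whose right retina had less miR-17-5p than miR-20a-5p, and miR-17-5p was higher in the other 9 libraries.

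miR-18a-5p, the only member with the miR-18 seed, was the lowest of those that passed the filter of a mean of at least 10 normalised reads. It had 19.4, 18.1, 8.95, 26.1 and 14.5 on the left and 19.7, 14.5, 12.5, 10.5 and 9.25 on the right. In every library it was below miR-20a-5p, from the same transcript, with a mean of 15.4 against 46.1.

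**Figure D1:**
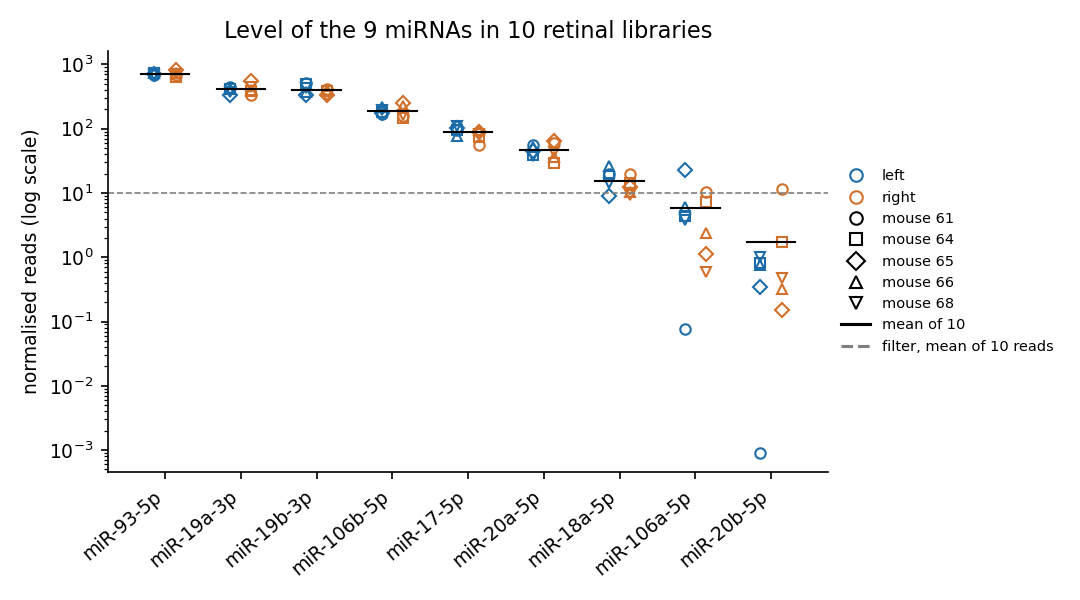
Normalised reads (log scale) of the 9 miRNAs in the left (blue) and right (orange) retina of 5 mice, with the mean of 10 libraries as a bar and the filter at a mean of 10 as a dashed line. miR-93-5p lies highest and tightest around 715, and miR-106a-5p and miR-20b-5p scatter over several orders of magnitude below the filter.

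The 2 members encoded on the X chromosome, miR-106a-5p and miR-20b-5p, had means of 5.90 and 1.71 normalised reads and did not pass the filter. Without mouse 61 the mean of miR-20b-5p was 0.694. miR-106a-5p had 0.0779, 4.43, 23.1, 6.01 and 3.74 in the left and 10.2, 7.33, 1.14, 2.35 and 0.586 in the right retinas. miR-20b-5p was at 11.5 in the right retina of mouse 61, at 0.00089 in the left retina of the same mouse and at no more than 1.71 in the other 8 libraries. Values this far below 1 read need not mean that a molecule was sequenced. In the right retina of mouse 61, where miR-17-5p was lowest, both X-linked members stood above their means, whereas the highest miR-106a-5p value, in the left retina of mouse 65, stood beside 102 for miR-17-5p. The sum of miR-17-5p and miR-106a-5p had a coefficient of variation of 17.8% over 10 libraries, and miR-17-5p alone 17.6%. Their nearest relatives by sequence, miR-17-5p and miR-20a-5p at 1 to 2 substitutions, had means of 88.2 and 46.1, and whether read assignment moved with these values was not tested. miR-363-3p, the last miRNA of the X-linked cluster, which has another seed, was also low, at 5.48 ± 1.83 (SD over 10 libraries).

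The order of the levels was therefore miR-93-5p, the miR-19 pair, miR-106b-5p, miR-17-5p, miR-20a-5p, miR-18a-5p, miR-106a-5p and miR-20b-5p. The ranges of neighbours did not overlap between miR-93-5p and miR-19a-3p (1.74-fold between means), miR-19b-3p and miR-106b-5p (2.12-fold), miR-106b-5p and miR-17-5p (2.14-fold) and miR-20a-5p and miR-18a-5p (3.0-fold). Neighbours whose ranges overlapped were miR-19a-3p and miR-19b-3p, miR-17-5p and miR-20a-5p, miR-18a-5p and miR-106a-5p, and miR-106a-5p and miR-20b-5p.

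The mean levels of the products of the miR-17-92 transcript, and of the miR-106b-25 transcript, spanned a wider range than any 1 of these products did between retinas, although miR-19a-3p and miR-19b-3p were close. Along miR-17-92, mean normalised reads were 88.2 for miR-17-5p, 15.4 for miR-18a-5p, 410 for miR-19a-3p, 46.1 for miR-20a-5p, 401 for miR-19b-3p and 35521 for miR-92a-3p, the last miRNA of the cluster, which has a different seed. miR-92a-3p was thus 403 times as high as miR-17-5p, though it also has a copy on chromosome X. Along miR-106b-25 the means were higher at each step, from 189 for miR-106b-5p to 715 for miR-93-5p and 11068 ± 716 (SD over 10 libraries) for miR-25-3p, which shares its seed with miR-92a-3p and has 1 genomic copy. miR-25-3p was 58.6 times as high as miR-106b-5p from the same host gene. However, miR-106b-5p was the less abundant arm of its hairpin, whose other arm, miR-106b-3p, had a mean of 540. How much of these ratios comes from ligation or from the rank-based normalisation was not tested.

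**Figure D2:**
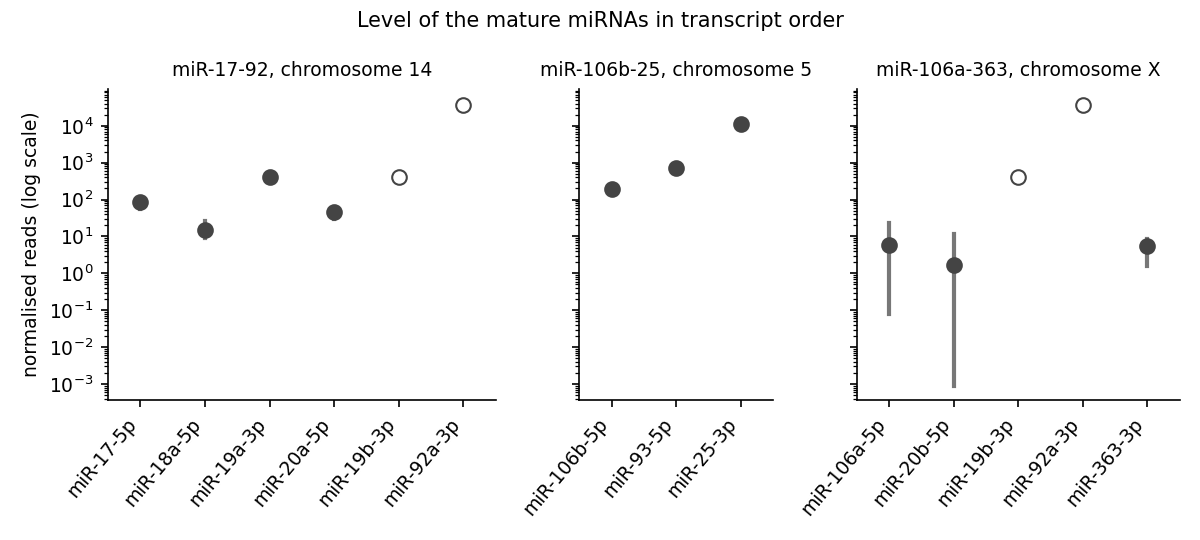
Mean normalised reads (log scale) of the mature miRNAs in transcript order for each cluster, with the range of 10 libraries as a line where it exceeds the point. Open points mark miR-19b-3p and miR-92a-3p, which have a copy on both chromosome 14 and chromosome X and are drawn with both clusters. The last 3p-arm miRNA of the first 2 clusters lies far above its partners.

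Both arms of a hairpin can be loaded, and the arm carrying the family seed was not always the more abundant. The hairpins below, from RefSeq on GRCm38.p6, show 1 locus where the opposite arm prevailed, 1 where the seed arm prevailed and 1 with both at similar level. The 5p and 3p arms are in capitals.
Mir106b: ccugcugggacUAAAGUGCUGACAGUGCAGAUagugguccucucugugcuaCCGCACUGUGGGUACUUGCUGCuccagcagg
Mir93: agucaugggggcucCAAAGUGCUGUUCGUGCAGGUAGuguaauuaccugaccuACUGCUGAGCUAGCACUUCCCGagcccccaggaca
Mir17: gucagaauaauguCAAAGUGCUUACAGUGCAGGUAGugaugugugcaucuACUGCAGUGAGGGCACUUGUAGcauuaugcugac
Arm shares are also shares of normalised values. The 5p arm of miR-106b, which has the miR-17 seed, took only 25.9% ± 3.56 (SD over 10 libraries) of the normalised reads of its hairpin. The opposite arm, miR-106b-3p, was higher in 10 of 10 libraries. miR-106b-3p had 482, 428, 593, 581 and 535 normalised reads in the left and 593, 490, 542, 575 and 581 in the right retinas, all above the highest miR-106b-5p value of 250. Its neighbour miR-93 had the opposite bias, with 95.9% ± 1.29 from the 5p arm. In the miR-17 hairpin the arms were close, with 58.9% ± 6.16 from miR-17-5p, which was higher in 9 libraries and lower in the left retina of mouse 66. The 5p arms of miR-20a and miR-18a took 87.6% ± 4.75 and 75.9% ± 10.1. Almost all normalised reads of miR-19a were on the 3p arm, and miR-19a-5p was listed at 0 in 6 libraries and at 0.9995 at most. Left and right retinas overlapped in the arm share of the miR-17, miR-18a, miR-20a, miR-93 and miR-106b hairpins.

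**Figure D3:**
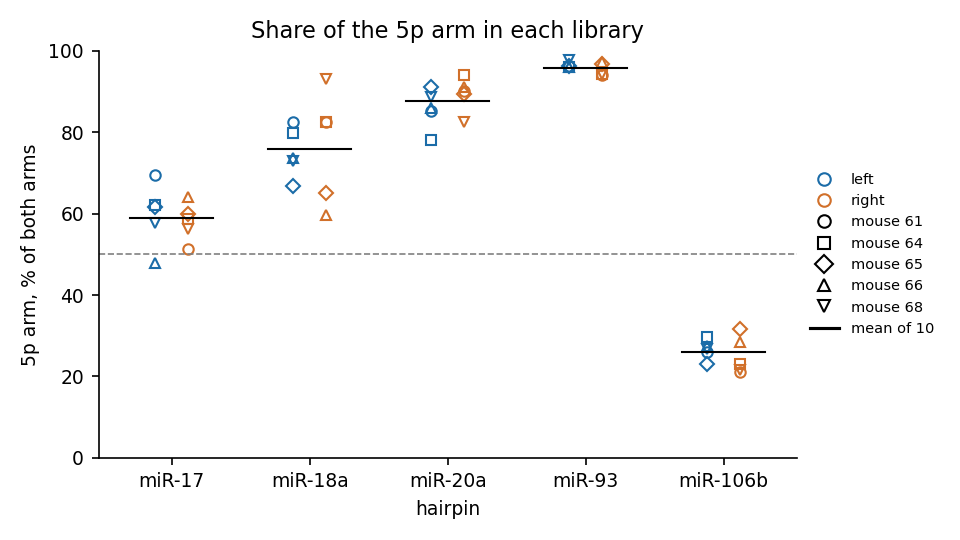
Percentage of the normalised reads of a hairpin listed for its 5p arm, for each left (blue) and right (orange) library. The mean of 10 libraries is a bar. miR-106b sits between 21.1% and 31.6%, below the dashed line at 50%, and miR-93 between 94.0% and 97.6%.

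Right and left retinas were compared to ask whether the members differed between the 2 eyes of mice with lens-induced myopia in 1 of them. None of the 7 members tested was called different between right and left. The log2 fold changes, right minus left on the log2(normalised reads + 1) scale, ran from -0.33 for miR-18a-5p to 0.08 for miR-19a-3p, with 2 above 0, 5 below and a median of -0.03, beside -0.01 over all 484 miRNAs tested. The value of miR-18a-5p was -0.11 without mouse 66 and -0.53 without mouse 65. By limma with mouse as a block, 0 of 7 members passed an adjusted p of 0.05, and 0 of 484 miRNAs did (0%). At an unadjusted p under 0.05 there were 0 members and 12 of 484 miRNAs (2.48%). No member had 1 direction in all 5 mice, as 18 of the 484 (3.72%) had, and none had left and right values that did not overlap, as 4 of the 484 (0.826%) had.

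miR-17-5p and miR-19b-3p had the smallest p values among the members. The mean of miR-17-5p was 96.2 ± 12.1 normalised reads on the left against 80.2 ± 15.4 on the right (SD, n = 5 each). In 4 of 5 mice the right value was lower, by 0.18 to 0.74 on the log2 scale, and in mouse 66 it was higher by 0.30. Its log2 fold change was -0.27 (SE 0.15), with a limma adjusted p of 0.958, and it was -0.16 without mouse 61 and -0.42 without mouse 66. For miR-19b-3p the left mean was 430 ± 77.5 and the right mean 372 ± 39.9 (SD, n = 5 each), with the right value lower in 3 mice, equal in mouse 65 and higher in mouse 66. Its log2 fold change was -0.19 (SE 0.11, limma adjusted p 0.958). miR-19a-3p, 1 letter away from it, was at 0.08 (SE 0.17) and ranged from -0.42 in mouse 61 to 0.72 in mouse 65.

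miR-93-5p was the most tightly measured member, and the 95% interval of its right-to-left ratio ran from 0.876 to 1.17, with a log2 fold change of 0.02 (SE 0.09). For miR-106b-5p the interval of the ratio was 0.784 to 1.23, with left and right means of 189 ± 20.3 and 189 ± 46.7 normalised reads (SD, n = 5 each), and for miR-20a-5p it was 0.732 to 1.31. miR-18a-5p had the widest, from 0.497 to 1.27, since its differences ran from -1.24 in mouse 66 to 0.44 in mouse 65. The median half-width over the 7 members was 0.37 on the log2 scale, beside 0.34 over all tested miRNAs.

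**Figure D4:**
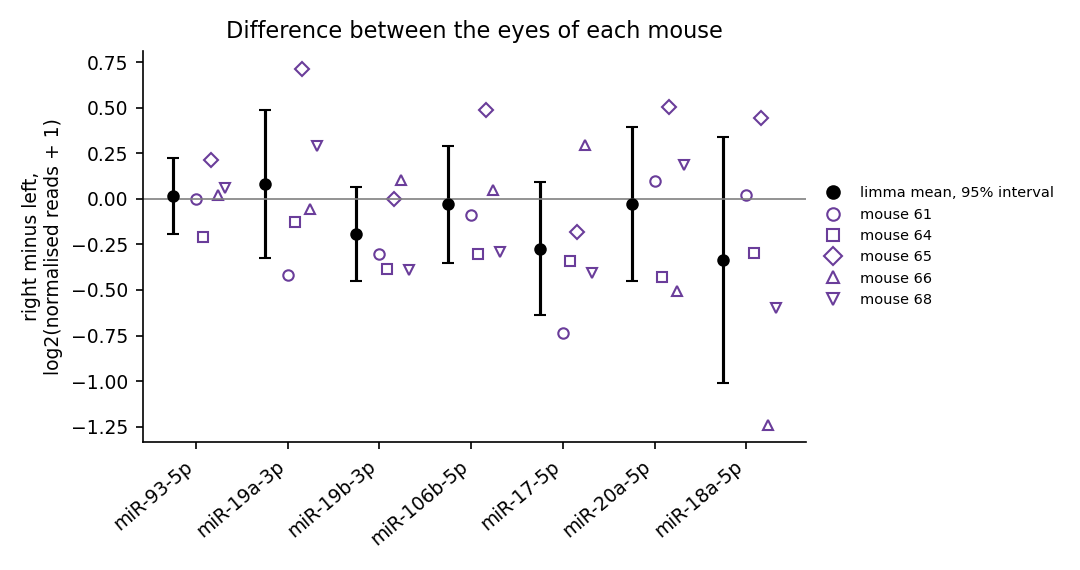
Right minus left on the log2(normalised reads + 1) scale for the 7 tested members, with the limma mean and its 95% interval in black and the difference of each mouse as an open symbol. All 7 intervals include 0, and every member has mice on both sides of 0.

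A lens effect on the left eye of some mice and the right eye of others would cancel in this contrast, so the size of the difference was also described without its sign. The median absolute difference over 5 mice was 0.06 for miR-93-5p and between 0.29 and 0.44 for the other 6 tested members. Its median over the 7 members was 0.30, beside 0.24 over all 484 tested miRNAs. Of the 7 tested members, miR-18a-5p and miR-20a-5p had the highest values, 0.44 and 0.43. The members below the filter were at 1.58 for miR-106a-5p and 0.45 for miR-20b-5p.

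In 1 mouse the tested members all lay on the same side. In mouse 64 all 7 tested members were lower in the right retina, by 0.13 to 0.43 on the log2 scale, where 47.3% of all tested miRNAs were lower. In mouse 65, 5 of 7 were higher in the right retina, with a median of 0.44 beside -0.03 over all tested miRNAs, while miR-17-5p was lower and miR-19b-3p equal. The other mice were split, with 2 members higher, 4 lower and 1 equal in mouse 61, 4 higher and 3 lower in mouse 66, and 3 higher and 4 lower in mouse 68, and medians of -0.09, 0.02 and -0.29. This description was chosen after the values were seen and has no test. The median GC content of the members was 42.9% (34.8% to 52.2%), below the median of 47.8% over tested miRNAs with a sequence. The right-minus-left difference per 10 points of GC was 0.19, 0.12, -0.17, 0.06 and 0.04 in mice 61, 64, 65, 66 and 68. With the GC trend of each library removed, the member medians were -0.24 in mouse 64, where 6 of 7 were lower, and 0.33 in mouse 65, where 5 of 7 were higher. Those of mice 61, 66 and 68 were then -0.05, 0.03 and -0.27. The right library of mouse 65 was also the one with the lens and cornea miRNAs, whose part in these differences was not tested. Without mouse 65 the log2 fold change of miR-19a-3p turned from 0.08 to -0.08 and that of miR-93-5p from 0.02 to -0.03.

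**Figure D5:**
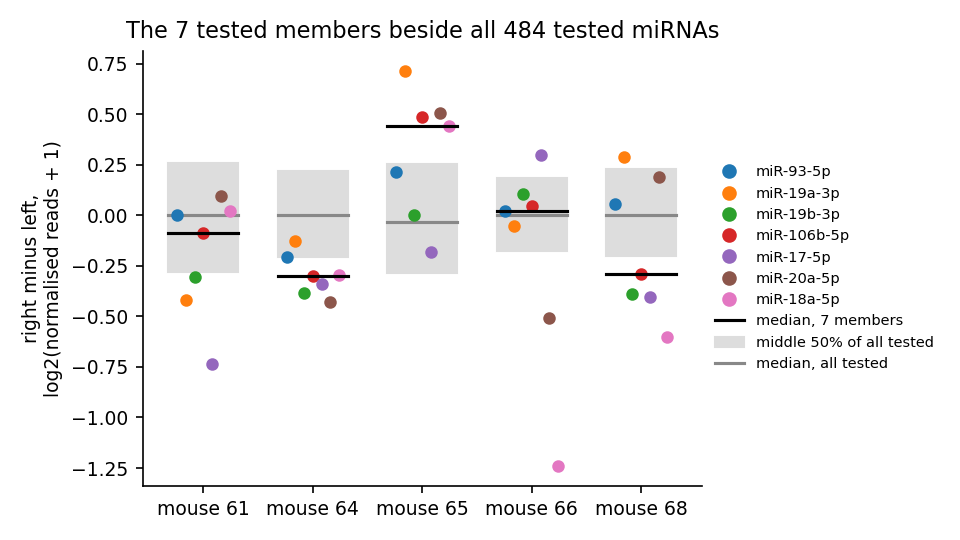
Right minus left on the log2(normalised reads + 1) scale in each mouse for the 7 tested members (coloured points, median in black), beside the middle 50% and the median of all 484 tested miRNAs in grey. The members lie below 0 in mouse 64, and 5 of them lie above 0 in mouse 65.

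The same fit asked whether the mice differed from each other by more than their 2 eyes did. None of the 7 members passed limma's F-test of the mouse term, with adjusted p values from 0.532 to 1, where 8 of 484 miRNAs (1.65%) passed. At an unadjusted p under 0.05 there were 0 members and 68 of 484 miRNAs (14%). miR-19a-3p had the smallest F, 0.08, its variation lying mostly between eyes of the same mouse, and miR-19b-3p the largest, 2.35. Of the 7 opposite arms and cluster partners tested, 3 had an unadjusted p under 0.05 in limma's F-test, and 0 passed after adjustment. Among these, miR-92a-3p had an F of 18.8 and an adjusted p of 0.0546 by limma, just short of the threshold. Its rank varied only from 20 to 24, and several of its values were the same in more than 1 library. It was at 28832, 34261, 41158, 38949 and 30983 normalised reads in the left and 30983, 38949, 38949, 41158 and 30983 in the right retinas of mice 61, 64, 65, 66 and 68, low in both eyes of mice 61 and 68 and high in both of mice 65 and 66.

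Of the 19 opposite arms and other miRNAs of the 3 clusters on the partner list, 13 were listed and 7 passed the filter. The right-minus-left log2 fold changes of these were above 0 for 5 and below 0 for 2, and 0 of 7 passed (0 also at an unadjusted p under 0.05, by limma). miR-93-3p had the largest, 0.37 (SE 0.27), with left and right means of 26.4 ± 5.65 and 35.0 ± 10.3 normalised reads (SD, n = 5 each). The other opposite arms were at 0.17 for miR-92a-1-5p, 0.09 for miR-106b-3p, 0.07 for miR-25-5p and -0.17 for miR-17-3p, and the abundant miR-92a-3p and miR-25-3p at 0.06 and -0.03.

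The members did not follow 1 pattern over the libraries. As a description over 10 libraries, 2 from each mouse, the 21 pairs of tested members had Pearson correlations of log2 values from -0.40 to 0.85, with a median of 0.19 beside -0.0029 over all pairs of tested miRNAs that varied. The highest, 0.85, joined miR-93-5p and miR-106b-5p, which share the seed and the Mcm7 transcript, and each was the closest of all tested miRNAs to the other. With any 1 library left out this value was between 0.76 and 0.91. Pairs of members within the miR-17-92 transcript ran from -0.40 for miR-17-5p and miR-18a-5p to 0.58 for miR-18a-5p and miR-19b-3p, with -0.26 for miR-17-5p and miR-20a-5p and -0.11 for miR-19a-3p and miR-19b-3p. Neighbouring hairpins, near-identical sequences and the rank-based normalisation are shared by these values.

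Outside the families, the closest single miRNAs were miR-30d-5p for miR-17-5p (r = 0.80, and 0.52 without the right retina of mouse 61), miR-376c-3p for miR-20a-5p (0.86), miR-182-3p for miR-18a-5p (0.83) and miR-188-5p for miR-19b-3p (0.94). For miR-19a-3p it was miR-184-3p, the lens and cornea miRNA, with 0.79, and 0.50 without the right retina of mouse 65. The mean profile of the 7 members, after each was standardised over the 10 libraries, was most like those of miR-29c-3p (r = 0.93), miR-101a-3p (0.86), miR-340-5p (0.86), miR-30a-5p (0.85) and miR-181c-3p (0.85). The GC content of the first 4 of these was 27.3% to 45.5%, and that of miR-181c-3p 59.1%. The members' own correlations with their mean profile ran from 0.27 for miR-19b-3p to 0.77 for miR-106b-5p. The 5 miRNAs above were picked as the highest among all tested non-members, so their values cannot be compared with those of the members.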

How the data were processed

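Per the labels' protocols, 50 ng of small RNA from each of 10 retinas went into the TruSeq Small RNA kit. The submitters' processing notes name Partek and Bowtie as tools and GRCm38 (mm10) as the build, and their versions, the trimming, the miRNA annotation and the assignment of reads to near-identical sequences are not stated in the sources used here. The authors deposited a signal made from normalised read counts, 1 value per mature miRNA and library. Sorted values were the same in all libraries at 342 ranks, as quantile normalisation gives. The depth is therefore unknown, and no counting intervals could be given. Each library had 822 to 899 miRNAs above 0.

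miRNAs with a mean of at least 10 were tested (484 of 1061, 7 of the 9 members). log2(value + 1), which understates changes of low miRNAs, was modelled in limma 3.58.1 (R 4.3.3) with side and mouse as terms and a mean-variance trend, two-sided, with Benjamini-Hochberg adjustment over all 484 and a threshold of 0.05. The fit was run on simulated data with independent normal noise around the real means. The simulation lacked the shared ranks and ties of this table, so it does not measure the power of the fit here. Both retinas of a number came from 1 animal, and the deviations of its 2 libraries from the side means had correlations across miRNAs (not independent replicates) of 0.0893 to 0.382 within mice (median 0.159), against -0.338 to 0.355 between mice (median -0.0824). Centring on the side means pulls the between-mice correlations below 0 when those within mice lie above 0, so the 2 are not independent. With mouse as a term, the right-minus-left p-values rest on how much the difference between eyes varied from mouse to mouse. With 1 library per retina, variation of the retinas and of their libraries cannot be told apart in either test.

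All 9 members are named, with partners that passed the filter and, by correlation, the 5 miRNAs most like the mean member profile and the 1 closest to each member. The members, lists and tests were chosen with earlier results of these data known. Coordinates are those of RefSeq and of the deposited table, whose starts were equal and whose stops lay 1 base further, counted from 1. Host genes came from GENCODE M21, looked up at 1 mature arm of each hairpin. Alternatives covered the pseudocount, the filter, the mouse term, scaling, moderation, each mouse, summing of near-identical members and, chosen after seeing the data, GC content (also the same miRNAs with the GC trend kept) and the sum of miR-17-5p and miR-106a-5p.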

Additional observations from a re-analysis of the deposited data

Results flagged for a closer look

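In 4 of 42 sets of 5 libraries (9.52%), 1 library of a side lay far from the others by Dixon's outlier rule. The rule flags about 1 in 20 sets of normally distributed values, and that rate need not hold for values near 0. In the right retina of mouse 61, miR-20b-5p had 11.5 normalised reads, against 0.154 to 1.71 for the remaining right retinas. In the left retina of mouse 65, miR-106a-5p had 23.1, against 0.0779 to 6.01 for the remaining left retinas. miR-18a-3p, the opposite arm of miR-18a-5p, was at 9.30 in the left retina of mouse 66, against 4.10 to 5.40, and miR-18a-5p had its highest value, 26.1, in the same library. miR-19b-1-5p was at 1.40 in the right retina of mouse 66 and listed at 0 in the other right retinas. The rule always flags a set with a single value above 0. All 4 miRNAs had a mean below the filter of 10.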

How the results depend on the processing

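Across 109 values of the members under alternatives, 0 passed in the right-minus-left comparison (smallest adjusted p by limma 0.378), and across 99 values 0 passed for differences among mice (0.255). The unadjusted limma p was under 0.05 for miR-17-5p between sides without mouse 66, and for miR-106b-5p among mice without mouse 65. The number of miRNAs called between sides was 0 under every alternative run, including no replicate block (mouse not paired), where the smallest adjusted p was 0.544 and no call changed. The unadjusted count depended on mouse 65. Without it, 63 of 483 miRNAs had an unadjusted p under 0.05 by limma (smallest adjusted p 0.241). The main fit had 12 of 484, and leaving out any other mouse gave 7 to 10. The number that differed among mice, 8, was 5 without the trend and 13 with the GC trend removed, which left 424 miRNAs with a sequence (10 of the same 424 passed with the GC trend kept), and 3 to 7 with each mouse left out. Small log2 fold changes changed sign: with each mouse left out, miR-20a-5p ranged from -0.16 to 0.090, miR-93-5p from -0.032 to 0.074, miR-106b-5p from -0.16 to 0.039 and miR-19a-3p from -0.077 to 0.21. With the GC trend removed miR-20a-5p was at 0.019 and miR-106b-5p at 0.0016, and with near-identical members summed miR-19a-3p, then a sum with miR-19b-3p, was at -0.045. The cause was not tested. miR-17-5p, miR-18a-5p and miR-19b-3p stayed below 0 in all alternatives run. With each mouse left out their ranges were -0.42 to -0.16, -0.53 to -0.11 and -0.27 to -0.15. The value of miR-19b-3p depended on its separation from miR-19a-3p, as their sum was at -0.045, with an F among mice of 0.19. miR-17-5p summed with miR-106a-5p was at -0.29. Of the members below the filter, miR-106a-5p ranged from -1.38 to 0.34 and miR-20b-5p from -0.12 to 0.90 with each mouse left out. The lack of read counts limits all low values, and no depth could be set beside them.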
